A study of Mus musculus with 8 samples.

Results

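The transcripts described here are those of Mllt11, Rab3a, Rusc2, Pdk4 and Prob1, which stood out in mouse embryonic stem cells by a higher level with 4-hydroxytamoxifen (4OHT) than with vehicle after transcription had been blocked, or by a loss with vehicle. They are 5 genes of 28476 features tested, and each is read by 1 probe, or 5 of 55681 probes in all. Probes were assigned to the genes through their RefSeq accession. The genes were chosen by their measured levels in 4OHT against vehicle and in vehicle against untreated, so these values, and those of 4OHT against untreated, which combine both, are given as a description and carry no test.

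Gene expression was measured on 8 single-colour Agilent arrays, 1 RNA sample each. All cells grew with LIF, the cytokine that sustains self-renewal, and with PD173074 (250 nM), which blocks FGF receptor kinases. In the 4OHT group (3 arrays) 5 µM actinomycin D, which stops RNA synthesis, was followed after 30 min by 4 h of 250 nM 4OHT. The vehicle group (2 arrays) had actinomycin D in the same way and then 4 h of ethanol. The untreated group (3 arrays, 0 h) is untreated by its treatment label, although an abbreviation of actinomycin D stands in its sample titles. 4OHT is a ligand of estrogen receptors and is often used to switch on proteins fused to a mutant receptor domain, but the labels do not state what it acts on in these cells, nor which cell line or clone was used. The design text calls the samples biological replicates. No label ties them to separate cultures, so p-values measure only the spread between arrays, and precision is limited by how few arrays there are.

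When transcription is stopped, the amount of an mRNA is set by how fast it is degraded, and an mRNA that is lost sooner than the bulk falls in a chase of this kind. The series is titled for Erk and the breakdown of mRNA, Erk being a kinase downstream of FGF receptors whose activity lengthens the life of some short-lived messages. The 5 genes belong to different pathways. Mllt11 encodes a small protein first found as a fusion partner of the MLL gene in human leukaemia. Rab3a encodes a GTPase of secretory and synaptic vesicles, and Rusc2 a protein with RUN and SH3 domains that binds the Golgi GTPase Rab1 in human cells. Pdk4 encodes a mitochondrial kinase that shuts off the pyruvate dehydrogenase complex and is induced by fasting in many tissues. Prob1 encodes a proline-rich basic protein.

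Values are log2 processed signals minus the 75th percentile of the array, so 0 is the 75th percentile. All 3 arrays of the 4OHT group lay on 1 slide, and the vehicle and untreated arrays lay on another, so slide and 4OHT cannot be told apart. On that other slide the vehicle arrays lay in row 1 and the untreated arrays in row 2, and the part of the row in the loss with vehicle cannot be told apart from that of the treatment. The 75th percentile itself was 180 to 209 units of signal on 4OHT arrays, 166 and 205 on vehicle arrays, and 333 to 457 on untreated arrays. Relative to 8 E1A spike-in control probes, which Agilent intends for addition to the RNA before labelling, the log2 75th percentile was −5.26 to −4.79 on 4OHT arrays, −4.83 and −4.71 on vehicle arrays, and −3.57 to −3.39 on untreated arrays. A level that holds against the 75th percentile has therefore fallen against the spike-in probes. The labels do not describe the spike-in step, and the labelling reaction was started from a set mass of RNA, so neither scale gives RNA per cell or the number of cells.

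The cells carried the markers of the labelled type. All 12 pluripotency markers listed were well above background on all 8 arrays, and their summed signal, in units of the 75th percentile, was 1122 to 1299 with 4OHT, 1302 and 1360 with vehicle, and 1011 to 1169 untreated. Of 13 fibroblast feeder markers, 6 were well above background on every array, Lum and Postn on none, and the sums were 4.62 to 5.07, 3.92 and 4.42, and 3.01 to 4.17 in the same groups. Neurons are cells in which Mllt11 and Rab3a are abundant. Of 13 neuronal markers, 11 were well above background on all arrays, with sums of 113 to 119 with 4OHT, 115 and 123 with vehicle, and 62.4 to 79.5 untreated. Primitive endoderm markers (6 of 11 on every array) summed to 350.1 to 447 with 4OHT, 386 and 486 with vehicle, and 190.4 to 248 untreated, and muscle markers (5 of 9, with Myog and Ckm on none) to 1.28 to 1.38, 1.44 and 1.67, and 0.90 to 1.26. Between 4OHT and vehicle the ranges of the neuronal and endoderm sums overlapped, the fibroblast sums were higher with 4OHT, and the pluripotency and muscle sums were lower. The part of other cell types in the results was not tested.

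The DNA around the start sites of the 4 transcripts that moved together is shown for orientation. The actinomycin D chase does not read promoter activity. RefSeq promoter windows (GRCm38.p6, 250 bases before to 50 after the start, whereas the array headers name mm9) were found for Mllt11, Rab3a, Rusc2 and Pdk4. The most upstream start of each gene is printed 5′ to 3′ on its own strand. Capitals mark matches on either strand to a GC box (GGGCGG) or a CCAAT box (CCAAT), the only motifs of the 10 searched that were found.
Mllt11 (chr3:95228628-95228927, - strand): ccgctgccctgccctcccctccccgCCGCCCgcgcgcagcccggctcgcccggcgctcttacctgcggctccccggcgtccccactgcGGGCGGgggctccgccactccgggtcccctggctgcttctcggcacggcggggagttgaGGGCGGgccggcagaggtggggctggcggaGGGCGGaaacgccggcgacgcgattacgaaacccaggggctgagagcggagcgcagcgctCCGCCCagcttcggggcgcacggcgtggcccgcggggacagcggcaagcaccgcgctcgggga
Rab3a (chr8:70754453-70754752, + strand): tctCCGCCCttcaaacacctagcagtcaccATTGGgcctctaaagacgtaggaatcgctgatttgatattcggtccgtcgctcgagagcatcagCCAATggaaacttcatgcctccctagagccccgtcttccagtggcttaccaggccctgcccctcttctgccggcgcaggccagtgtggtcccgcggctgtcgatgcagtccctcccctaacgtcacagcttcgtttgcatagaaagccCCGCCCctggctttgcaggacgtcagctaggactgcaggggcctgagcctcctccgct
Rusc2 (chr4:43381732-43382031, + strand): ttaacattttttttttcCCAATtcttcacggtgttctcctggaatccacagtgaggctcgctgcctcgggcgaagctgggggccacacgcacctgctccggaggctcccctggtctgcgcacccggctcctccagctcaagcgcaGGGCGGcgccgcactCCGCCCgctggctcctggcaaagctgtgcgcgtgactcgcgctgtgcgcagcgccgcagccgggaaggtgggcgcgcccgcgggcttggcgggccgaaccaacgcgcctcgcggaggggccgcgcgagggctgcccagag
Pdk4 (chr6:5496229-5496528, - strand): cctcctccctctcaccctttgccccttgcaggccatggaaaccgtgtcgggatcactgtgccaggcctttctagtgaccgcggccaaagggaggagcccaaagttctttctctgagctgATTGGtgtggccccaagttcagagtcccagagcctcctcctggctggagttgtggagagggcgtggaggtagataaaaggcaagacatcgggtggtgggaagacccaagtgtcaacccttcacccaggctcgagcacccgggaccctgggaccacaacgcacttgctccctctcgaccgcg

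The GC box was present in 3 of the 4 windows (all but that of Pdk4), and the CCAAT box in 3 (all but that of Mllt11). Rab3a and Rusc2 have further starts, which are not printed. The windows from chr8:70754852 (Rab3a) and chr4:43406252 (Rusc2) held neither motif, and that from chr4:43381819 (Rusc2) held the GC box alone. Of 32851 RefSeq windows of 300 bases, further starts of a gene included, 35.7 and 37.4% held the GC box and the CCAAT box. The other motifs had no match in the 4 windows, among them the AP-1 site TGANTCA (7.81% of windows), TATAAA (13.6%), the cAMP response element TGACGTCA (1.79%) and CACGTG (7.15%). The same held for the serum response element core (0.0639%), the estrogen response element (0.07%), the forkhead site GTAAACA (3.65%) and AGGTCA (16.3%). The windows were rich in G and C, at 78.7% for Mllt11, 60.0% for Rab3a, 70.0% for Rusc2 and 60.7% for Pdk4, against a median of 52.7% over all windows. They held 44, 18, 35 and 12 CpG pairs, against a median of 7.

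**Figure D1:**
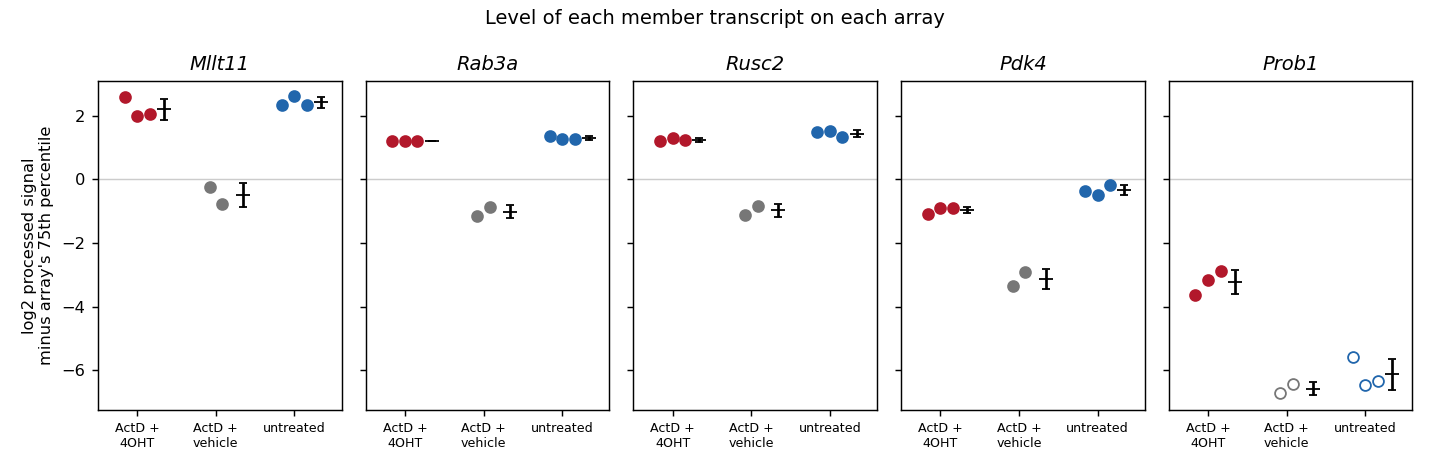
Level of each of the 5 transcripts on each array (y axis, log2 processed signal minus the 75th percentile of the array, which is the line at 0) in the 4OHT, vehicle and untreated groups. Points are arrays, filled where the probe was well above background and open where it was not, and black bars are the mean ± SD. Mllt11, Rab3a, Rusc2 and Pdk4 are low on both vehicle arrays alone, and Prob1 is above background on the 3 4OHT arrays alone.

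Mllt11 stood at 2.58, 1.98 and 2.04 with 4OHT, at −0.24 and −0.77 with vehicle, and at 2.32, 2.62 and 2.32 in untreated cells. Both vehicle arrays were far below all others, and 4OHT replicate 1 lay within the untreated range, so the 4OHT and untreated groups overlapped. The means were 2.20 ± 0.33 (SD, n = 3) with 4OHT, −0.50 ± 0.38 (SD, n = 2) with vehicle and 2.42 ± 0.17 (SD, n = 3) untreated. The vehicle level was 13.2% and the 4OHT level 86.0% of untreated, and 4OHT over vehicle was 6.51-fold (log2 2.70 ± 0.24, SE). Mllt11 ranked 6 of 28476 features by 4OHT minus vehicle, where the median of all features was −0.05. It varied more among the 4OHT arrays than Rab3a, Rusc2 and Pdk4 did, with 112% of the untreated mean on replicate 1 and 73.9 and 76.7% on the other two.

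Rab3a stood at 1.21, 1.21 and 1.21 with 4OHT, at −1.16 and −0.86 with vehicle, and at 1.37, 1.27 and 1.27 in untreated cells. The 3 groups did not overlap, but the lowest untreated array was only 0.05 above the highest 4OHT array. The means were 1.21 ± 0.0021 (SD, n = 3) with 4OHT, −1.01 ± 0.21 (SD, n = 2) with vehicle and 1.30 ± 0.06 (SD, n = 3) untreated. That is 93.9% of untreated with 4OHT and 20.1% with vehicle, and 4.68-fold more with 4OHT than with vehicle (log2 2.23 ± 0.11, SE).

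Rusc2 stood at 1.19, 1.29 and 1.22 with 4OHT, at −1.12 and −0.83 with vehicle, and at 1.48, 1.51 and 1.32 in untreated cells. The 4OHT arrays were again just below untreated, by 0.02 at the closest pair, with no overlap between groups. The 4OHT level was 87.1% and the vehicle level 18.9% of untreated, 4.62-fold apart (log2 2.21 ± 0.12, SE).

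Pdk4 was the least fully kept of these transcripts. It stood at −1.09, −0.90 and −0.92 with 4OHT, at −3.36 and −2.91 with vehicle, and at −0.38, −0.49 and −0.18 in untreated cells. The groups did not overlap, with the lowest untreated array 0.41 above the highest 4OHT array. The 4OHT level was 65.2% and the vehicle level 14.5% of untreated, 4.49-fold apart (log2 2.17 ± 0.16, SE). Its raw median signal on the vehicle arrays was 43.0 and 59.5 against local backgrounds of 24.0 and 23.0, so the low end of the fold rests on small signals. With normexp background correction, which adds an offset of 50 before the log, 4OHT minus vehicle was 1.03 and vehicle minus untreated −1.44 in place of −2.78.

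The share of the vehicle loss that was absent with 4OHT, on the log2 scale, was 96.1% for Rab3a, 92.5% for Mllt11, 91.7% for Rusc2 and 77.8% for Pdk4. Among all features, 0.92% were called higher with 4OHT than with vehicle and 15.9% lower with vehicle than untreated (41.5% higher), by limma with Benjamini-Hochberg adjusted p under 0.05. A further 2.58% were called lower with 4OHT than with vehicle. Scaled to the spike-in probes, 3.23% of the calls between 4OHT and vehicle were higher, in place of 26.3%. The ranks of Rab3a, Rusc2 and Pdk4 by 4OHT minus vehicle were 15, 16 and 18. By vehicle minus untreated, counted from the lowest, Mllt11 ranked 424, Pdk4 510, Rusc2 802 and Rab3a 879, so many features were lost further with vehicle. These 2 comparisons use the same vehicle arrays, and a low value there moves both. Between 4OHT and untreated, 59.8% of features were called, 41.1% higher and 18.7% lower.

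Scaled to the spike-in probes, the 4 transcripts were lower with 4OHT than untreated as well. Mllt11 was at 28.7% of untreated with 4OHT and 5.45% with vehicle, and Rab3a at 31.3 and 8.28%. Rusc2 was at 29.1% with 4OHT and 7.78% with vehicle, and Pdk4 at 21.8 and 5.99%. On this scale 45.8% (Pdk4) to 57.1% (Mllt11) of the log2 vehicle loss was absent with 4OHT. The difference between 4OHT and vehicle was smaller on this scale by the shift common to all features, at 2.40 for Mllt11, 1.92 for Rab3a, 1.90 for Rusc2 and 1.86 for Pdk4. The name "preserved" thus holds relative to the 75th percentile of the array, and not relative to the spike-in probes. On the spike-in scale the median of all features was −1.27 for 4OHT against untreated, against −1.80, −1.67, −1.78 and −2.20 for Mllt11, Rab3a, Rusc2 and Pdk4.

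**Figure D2:**
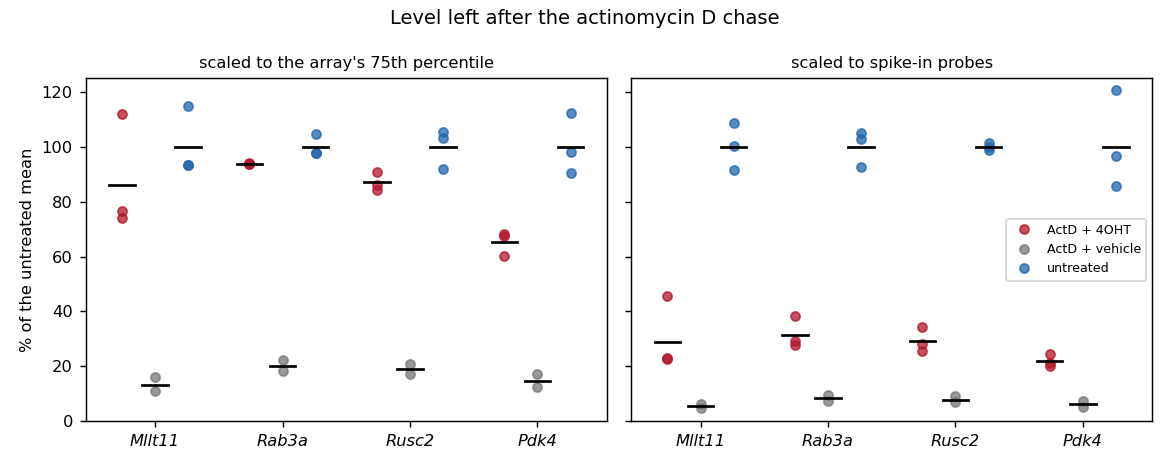
Level of 4 transcripts on each array as a percentage of the untreated mean (y axis), scaled to the 75th percentile of the array (left panel) or to the spike-in probes (right panel). Points are arrays and black lines group geometric means. 4OHT means lie at 65.2 to 93.9% on the left and at 21.8 to 31.3% on the right, above the vehicle means in both panels. Prob1 is left out because it was not above background untreated.

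Prob1 went against the name of the set. Its processed signal was 16.9, 20.0 and 24.8 with 4OHT, 1.59 and 2.38 with vehicle, and 7.0, 5.2 and 5.0 in untreated cells. It was well above background on all 3 4OHT arrays and on none of the vehicle or untreated arrays, so no loss with vehicle can be read from it. Feature Extraction gave its signal an error of 13.7 to 16.3% with 4OHT, 100.5 and 98.4% with vehicle, and 24.9 to 52.9% in untreated cells, against 10.0 to 12.6% for the other 4 transcripts over all arrays. On the scaled log2 values, it was −3.63, −3.17 and −2.88 with 4OHT and between −6.71 and −5.57 on the other arrays. On these values the nominal lower bounds for Prob1 were 2.83-fold for 4OHT over vehicle and 4.54-fold for 4OHT over untreated. These bounds set the 4OHT mean against the lowest signal well above background, or the probe's own where higher, on each array of the dim group. The bounds apply to these scaled values alone. They are not strict limits, since a probe not well above background can lie above that lowest signal. Scaled to the spike-in probes, Prob1 with 4OHT was at 249% of untreated, which is less than 4.54-fold. On that scale 4OHT minus vehicle was 3.04 (log2). With normexp 4OHT minus vehicle was 0.36 and 4OHT minus untreated 1.14 (log2), both below the bounds. Vehicle minus untreated was 0.79 with normexp in place of −0.44. Prob1 passed the filter through the 4OHT group alone and was chosen for its level there, so its pattern of detection is a description and carries no test. In all, 3 of 28476 features (0.0105%) were well above background on all 4OHT arrays and on no other, and Prob1 was the only one with a gene symbol. The opposite, above background on all untreated and vehicle arrays and on no 4OHT array, held for 305 features (1.07%). The arrays themselves differed in detection. Of all non-control spots, 53.0 to 57.4% were well above background on 4OHT arrays, 55.6 and 60.0% on vehicle arrays, and 61.0 to 75.7% on untreated arrays. The part of this difference in the 2 counts was not tested.

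None of the 7 paralogs of Rab3a, Pdk4 and Rusc2 passed the test for 4OHT against vehicle (limma). Rab3b stood at −0.14 ± 0.40 (adjusted p = 0.9), Rab3c at −0.25 ± 0.14 (adjusted p = 0.38) and Rab3d at −0.04 ± 0.14 (adjusted p = 0.92, all SE). Pdk1 stood at −0.21 ± 0.14 (adjusted p = 0.5), Pdk2 at 0.23 ± 0.14 (adjusted p = 0.44), Pdk3 at 0.08 ± 0.10 (adjusted p = 0.74) and Rusc1 at −0.07 ± 0.17 (adjusted p = 0.86). For vehicle against untreated Rab3c fell by 0.64 ± 0.14 (adjusted p = 0.0061), less than the 2.32 of Rab3a. With median scaling the Rab3c call was lost (adjusted p = 0.12). Rab3d rose by 0.80 ± 0.14 (adjusted p = 0.0029) and Pdk3 by 0.45 ± 0.10 (adjusted p = 0.0071) relative to the 75th percentile, but scaled to the spike-in probes Rab3d was at −0.47 (adjusted p = 0.13) and Pdk3 fell by 0.82 (adjusted p = 0.01). The Pdk3 rise was lost with normexp (adjusted p = 0.13) and with median scaling (adjusted p = 0.16). Rab3b (0.77, adjusted p = 0.14), Pdk1 (0.32, adjusted p = 0.095), Pdk2 (0.36, adjusted p = 0.059) and Rusc1 (0.32, adjusted p = 0.14) did not pass. Scaled to the spike-in probes, Pdk1 fell by 0.96 (adjusted p = 0.0046), Pdk2 fell by 0.91 (adjusted p = 0.0092) and Rusc1 fell by 0.96 (adjusted p = 0.0048), while Rab3b was at −0.51 and did not pass. The difference between each member and its paralogs was not tested.

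**Figure D3:**
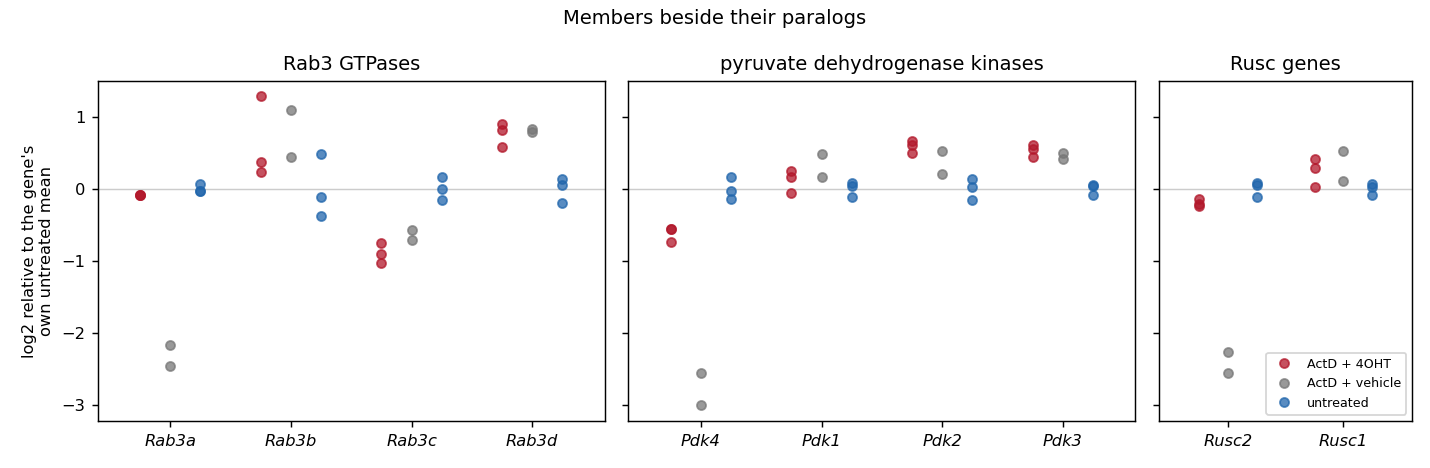
Rab3a, Pdk4 and Rusc2 beside their paralogs, as log2 values relative to the untreated mean of the same gene (y axis), 1 point per array, in the 4OHT, vehicle and untreated groups. The vehicle arrays of the 3 members lie below −2.0, whereas those of the paralogs lie above −1.0.

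Rab3 pathway genes other than Rab3a did not pass the test for 4OHT against vehicle. Of 20 tested genes for Rab3 GTPases, their effectors and regulators, 0 were called by limma (0 at an unadjusted p under 0.05, against 19.2% of all features), with a median of −0.05, the same as for all features, of which 3.5% were called. The median over 22 exocytic SNARE and vesicle genes was 0.08. For vehicle against untreated, where 57.5% of all features were called and the median was 0.40, 9 of the 20 Rab3 pathway genes rose (41.5% of all features) and 2 fell (15.9%). Gdi2, which takes Rab proteins off membranes, rose by 0.98 ± 0.12 (SE, adjusted p = 0.0006), but with quantile normalization it was at 0.088 (adjusted p = 0.51). Rabif, an exchange factor for such GTPases, fell by 1.61 ± 0.28 (adjusted p = 0.0026). Of the 22 SNARE and vesicle genes, 17 rose, such as the syntaxin gene Stx4a (0.91, adjusted p = 0.00031), and Stxbp3, which binds syntaxins, fell by 0.68 ± 0.14 (adjusted p = 0.005). Other probes of Stxbp3 differed, at −0.84 and 0.22, and its call was lost with median scaling (adjusted p = 0.1). These rises, and those of the lists that follow, are relative to the 75th percentile. Scaled to the spike-in probes the median of all features was −0.88, and 0.172% of the calls were rises.

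Of 15 tested genes of the pyruvate dehydrogenase step other than Pdk4, 0 were higher and 2 lower with 4OHT than with vehicle, against 0.92 and 2.58% of all features. Pdhx, which anchors a subunit of the complex, fell by 0.81 ± 0.09 (adjusted p = 0.011), and Dlat, its acetyltransferase, by 0.52 ± 0.09 (adjusted p = 0.028). The Pdhx call (limma) was lost under 6 of 20 alternatives, among them median scaling (adjusted p = 0.41), no scaling (0.2), the replicate block (0.083) and leaving out vehicle replicate 1. The Dlat call was lost under 13 of 20, among them median scaling (0.82), spike-in scaling (0.064) and leaving out any 1 array other than untreated replicate 2. For vehicle against untreated 7 rose and 3 fell, against 41.5 and 15.9% of all features. Bckdk, a kinase of a related complex, rose by 1.02 ± 0.08 (adjusted p = 0.00018). Pdp1, the phosphatase that opposes Pdk4, fell by 1.33 ± 0.17 (adjusted p = 0.00077), and Pdhx fell by 0.92 ± 0.09 (adjusted p = 0.00032). Lipt1, a lipoyl transferase, fell by 3.40 ± 0.79 (adjusted p = 0.0088), with an SD of 1.58 among the 4OHT arrays, and lost its call without vehicle replicate 2 (adjusted p = 0.051).

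Among 25 genes of the PPAR and FoxO fasting response, to which Pdk4 also belongs, 0 were higher and 2 lower with 4OHT than with vehicle (all features 0.92 and 2.58%). Foxo1, a forkhead factor that drives Pdk4 transcription, stood at −0.46 with 4OHT, 0.54 with vehicle and 2.32 untreated. Its 4OHT minus vehicle was −1.0 ± 0.13 (SE, limma adjusted p = 0.016), with −0.84 on its second probe. It was already lower with vehicle than untreated, by −1.77 ± 0.13 (SE, limma adjusted p = 0.00013), with −3.07 on its second probe. Angptl4, a lipoprotein lipase inhibitor, fell to 0.93 with 4OHT, against 1.86 with vehicle (−0.92 ± 0.12, SE, adjusted p = 0.016). The Foxo1 call (limma) was lost under 7 of 20 alternatives, among them median scaling (adjusted p = 0.24), the replicate block (0.097) and leaving out either vehicle array. That of Angptl4 was lost under 8 of 20, among them median scaling (0.26), no scaling (0.19) and leaving out vehicle replicate 1 or 2 or 4OHT replicate 2. With vehicle against untreated, 11 of the 25 rose, such as Acadvl of fatty acid oxidation (1.06, adjusted p = 0.00031), and 7 fell, where 41.5% of all features rose and 15.9% fell. Txnip, an inhibitor of glucose uptake, fell by 2.47 ± 0.12 (adjusted p = 2.6e-05), Irs2, an insulin receptor adaptor, by 2.22 ± 0.16 (adjusted p = 0.00013) and Angptl4 by 2.08 ± 0.12 (adjusted p = 4.8e-05). For 4OHT against vehicle Txnip (0.77 with 4OHT, 0.70 with vehicle, adjusted p = 0.81) and Irs2 (−0.66 with 4OHT, −0.29 with vehicle, adjusted p = 0.28) did not pass.

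Of 24 genes with RUN domains or tied to Rab1, 0 were higher with 4OHT than with vehicle (0.92% of all features) and 3 were lower (2.58% of all features), Rundc1 by 0.97 (adjusted p = 0.012), the recycling GTPase Rab35 by 0.72 (adjusted p = 0.038) and the endosomal Rufy1 by 0.64 (adjusted p = 0.041). Rundc1 kept its call without any 1 array (adjusted p up to 0.05) but lost it under 5 of 20 alternatives, those with median scaling (adjusted p = 0.23), no scaling (0.15), the replicate block (0.077), only the groups compared (0.074) or no filter (0.062). Rab35 lost it without each array (up to 0.16), and Rufy1 without each array other than 4OHT replicate 1 (up to 0.19). For vehicle against untreated 7 rose, such as Sgsm2 (1.08, adjusted p = 0.002), and 7 fell, beside 41.5 and 15.9% of all features. Rufy3 fell by 1.49 ± 0.32 (adjusted p = 0.0066), Plekhm1, a lysosomal adaptor, fell by 1.42 ± 0.11 (adjusted p = 0.00016) and Rundc1 fell by 1.25 ± 0.11 (adjusted p = 0.00025). Of 25 MLL fusion partners and cofactors besides Mllt11, 0 were called for 4OHT against vehicle by limma (3 at an unadjusted p under 0.05, against 12 of the 24 RUN and Rab1 genes and 19.2% of all features). For vehicle against untreated 11 rose, such as the forkhead factor gene Foxo4 (1.31, adjusted p = 0.001), and 3 fell, again beside 41.5 and 15.9% of all features. Mllt1 fell by 0.80 ± 0.09 (adjusted p = 0.00038), the elongation factor gene Ell fell by 0.66 ± 0.11 (adjusted p = 0.0019) and Mllt10 fell by 0.51 ± 0.09 (adjusted p = 0.0023). The calls of Ell (adjusted p = 0.099) and Mllt10 (adjusted p = 0.19) were lost with median scaling.

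The genes closest to each member over the 8 arrays were sought by the root mean square difference of log2 values, each gene being set relative to its untreated mean. This is a description, since the members were chosen on the same arrays for like differences. Rusc2 (0.10), Hbegf (0.14) and the neural factor Bhlhe22 (0.30) were closest to Rab3a, and the same 3 genes with Rab3a in place of Rusc2 were closest to Rusc2 (0.10, 0.21 and 0.30). Hbegf, a ligand of the EGF receptor, stood at means of 2.02 with 4OHT, −0.15 with vehicle and 2.01 untreated. Bhlhe22 was dim, being well above background on 1 of 3 4OHT arrays, 0 of 2 vehicle arrays and 3 of 3 untreated arrays. Closest to Pdk4 were Epha2, a receptor of ephrins (0.29), Nt5dc3 (0.31) and Rusc2 (0.35). Epha2 stood at 3.26 with 4OHT, 0.72 with vehicle and 3.93 untreated, and Nt5dc3 at 0.20, −1.36 and 0.83, so both, like Pdk4, were partly kept. Closest to Mllt11 were Rusc2 (0.38), Rab3a (0.42) and Pdk4 (0.44). For Prob1 no such genes are given, because it was not above background on the untreated and vehicle arrays.

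**Figure D4:**
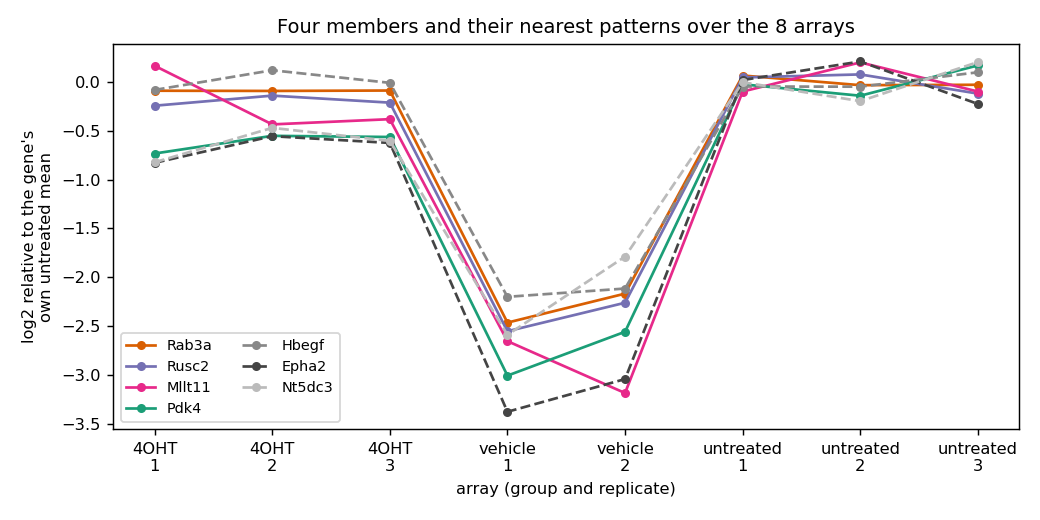
Mllt11, Rab3a, Rusc2 and Pdk4 (solid lines) and the nearest patterns Hbegf, Epha2 and Nt5dc3 (dashed) on the 8 arrays, as log2 values relative to the untreated mean of the same gene (y axis). Lines join arrays only to guide the eye. All 7 genes are lowest on the 2 vehicle arrays. Pdk4, Epha2 and Nt5dc3, and by a smaller gap Rab3a and Rusc2, are below untreated on every 4OHT array.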

How the data were processed

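Per the file headers, the authors extracted each array with Agilent Feature Extraction 11.0.1.1, and the deposited processed signal is an intensity on a linear scale from which background was subtracted. The RNA went through a low-input amplification kit before hybridisation, per the labels. Other marks used (well above background, outlier, saturated) are flags of other kinds set by that software, as deposited. The deposited value table held the same intensity to a relative difference of 0.005.

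Here, control spots (3671) and outlier spots were left out, spots of a probe were averaged on the log2 scale, and 466 probes without a value on every array were dropped. Probes well above background on all arrays of at least 1 group were kept (32991). Each symbol (accessions matched to a RefSeq table of GRCm38.p6, names only) was represented by its brightest probe, giving 28476 features, 14916 with a symbol. The 3 groups were fitted together with limma 3.58.1 in R 4.3.3 (lmFit, eBayes, 5 residual degrees of freedom), with Benjamini-Hochberg adjusted two-sided p-values called under 0.05. The fit was checked on simulated data. Alternatives changed the background correction, scaling, filter, choice of probe, variance model and samples, or added a replicate block. The number of arrays limits precision.

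The members and gene lists were chosen with earlier results of these data known. The rule for named genes took the members, their paralogs, the 3 largest rises and falls among called genes of each list and comparison, and the 3 nearest patterns of each member. Some list genes it allows and the patterns near Prob1 are left unnamed, and the results of 1 gene are not reported here.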

Additional observations from a re-analysis of the deposited data

How the results depend on the processing

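Over 20 alternatives, 4OHT minus vehicle stayed positive for Mllt11 (2.08 to 2.97), Rab3a (1.60 to 2.37), Rusc2 (1.78 to 2.35) and Pdk4 (1.03 to 2.39), and for Prob1 over the 19 that kept it (0.36 to 3.54). In each case the lowest value came with normexp, whose offset shrinks differences between dim signals. For the first 4 genes vehicle minus untreated stayed negative in all of these, and so did 4OHT minus untreated, except for Rab3a with median scaling (0.06).

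The number of features called for 4OHT against vehicle was 997, and depended on the setting. It was 242 with median scaling, 92 without scaling, 101 without a filter, 66 with only the groups compared, 20 with a replicate block, and 141 to 762 when 1 array was left out (lowest without vehicle replicate 1). Where 1 vehicle array remained it was assumed to vary like the other groups. With spike-in scaling 3.23% of the calls were higher, against 26.3%, and with vehicle replicate 1 or 2 left out 42.6 and 39.5%. Same-numbered arrays deviated from their group means with r of 0.36 and 0.22 between 4OHT and vehicle, −0.03 and −0.19 between vehicle and untreated, and −0.04, −0.14 and 0.11 between 4OHT and untreated. Since not every pair was positive, the numbers were not taken to pair the samples, although both pairs of 4OHT and vehicle, where the block lowers the count to 20, were. The 2 vehicle arrays deviate from their mean by equal and opposite amounts, so those 2 values of r are not independent. The differently numbered 4OHT replicate 3 and vehicle replicate 2 had an r of 0.20. The block left the other 2 counts within 1.5 times.

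For vehicle against untreated 16364 features were called, 72.3% of them higher, but 84.8% with normexp, 60.2% with quantile, 0.267% without scaling and 0.172% with spike-in scaling. For 4OHT against untreated the count was 17030 (68.6% higher), and 26640 (0.109%) with spike-in scaling, 0.598% without scaling and 84.4% with normexp. Among named genes, values turned below untreated without scaling and with spike-in scaling for Rab3d (−0.29 and −0.47), Gdi2 (−0.11 and −0.29), Pdk1 (−0.78 and −0.96), Pdk2 (−0.73 and −0.91), Pdk3 (−0.64 and −0.82), Rusc1 (−0.78 and −0.96), Stx4a (−0.19 and −0.37), Bckdk (−0.077 and −0.26), Acadvl (−0.035 and −0.22) and Sgsm2 (−0.020 and −0.20). Rab3b, which passed in neither, was −0.51 with spike-in scaling. Both settings keep the fall of the 75th percentile itself in the values. The signal over background limits Prob1, Bhlhe22 and Pdk4 with vehicle.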
